A study of Mus musculus with 3 samples.

Results

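The genes described here are 9 histone acetyltransferase genes other than Kat7, the gene that encodes HBO1: Kat5, Kat6a, Kat6b, Kat8, Kat2a, Kat2b, Ep300, Crebbp and Hat1. The rule that chose them is their names and uses no measured value, though earlier results of these data were known when it was set. They are part of 21938 protein-coding genes of GENCODE vM21 on mm10. All 9 were in that annotation, with 62 distinct transcription start sites (TSSs). HBO1 was measured by ChIP-seq, in which chromatin fragments bound by a protein are pulled down with an antibody and sequenced. The cells were Oct1 deficient mouse ESCs, which are embryonic stem cells lacking a paralog of the pluripotency factor Oct4. HBO1 was pulled down in 2 ChIP samples, and 1 input sample held sheared chromatin without pull-down. All 3 samples had this genotype and were grown with 3 µM CHIR99021, a GSK3 inhibitor, 1 µM of a MEK inhibitor and ascorbic acid, and formaldehyde (1%, 10 min) was the crosslinker. There was no WT sample, so no value below is a change between genotypes, and expression, by which the cell type could be checked, was not measured. The labels name the antibody of the second ChIP sample HBO2 while its title says HBO1, and it was taken as HBO1. One title among the texts of the study names WT ESCs for this peak list, and the labels were followed. The values used are those of 1 list of 13823 peaks for both ChIP samples and of the input read ends, so no spread between replicates and no p-value can be given. The input held 31973678 read ends.

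Histone acetyltransferases move an acetyl group from acetyl-CoA to lysines of histones, which loosens chromatin and offers docking sites to bromodomain proteins. The MYST family holds Kat5, Kat6a, Kat6b, Kat8 and HBO1 itself, and its members work inside complexes with scaffold and reader subunits. Kat2a and Kat2b are the paralogous enzymes of the SAGA and ATAC coactivators, Ep300 and Crebbp are paralogous coactivators that acetylate enhancer chromatin, and Hat1 acetylates newly made histone H4 before it is placed on DNA.

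HBO1 peaks lay at the starts of 6 of the 9 genes, and 18 of the 39 peaks in the genes or within 50 kb were those of Kat6b. A peak with an edge within 1 kb of a TSS was found at Kat6b, Kat2a, Kat2b, Ep300, Crebbp and Hat1 (66.7%), where 21.7% of all protein-coding genes had one. With a −log10 q limit of 10 it was found at 3, Kat6b, Ep300 and Hat1, where 7.97% of all had one. A TSS lay inside a peak at 5 of the 9, all of these except Hat1 (55.6%, against 10.9% of all). With protein-coding transcripts this held for 3 genes, without Ep300 and Kat2a (8.54% of all), and with 1 outermost TSS per gene for 0 (3.53% of all). At least 1 peak overlapped the body of the same 6 genes (66.7%, against 28.2%), and 8 of the 9 had a peak in the gene or within 50 kb (88.9%, against 62.0%). With the −log10 q limit at 10 both counts were 3, against 9.43% and 25.6% of all. Kat5, Kat6a and Kat8 had no peak at a TSS or in the gene, and Kat6a also had none within 50 kb. The share with a peak in the body rose with gene length, from 14.2% of genes under 10 kb to 51.7% of those of 100 to 200 kb. The shares with a peak at a TSS moved with the number of annotated starts and with GC content. Among protein-coding genes, a peak at a TSS was listed for 9.65% of those with 1 TSS and 14.8% with 2 to 3. It was listed for 28.6% with 4 to 7 and 37.1% with 8 to 12, and the acetyltransferase genes had 3 to 12. With 9 genes and 1 list, nothing is called particular to these genes from the counts.

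**Figure D1:**
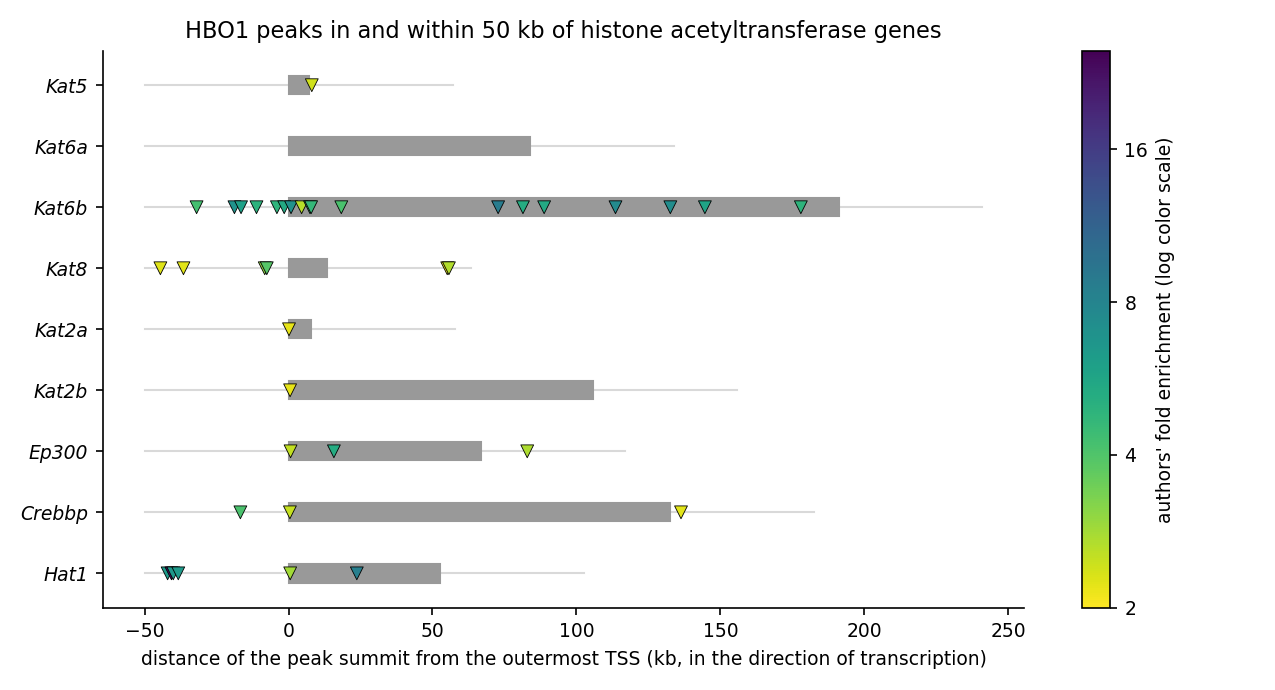
Each row is 1 acetyltransferase gene, drawn to scale from its outermost TSS at 0 (dark bar) with 50 kb on each side (thin line), and each triangle is the summit of an HBO1 peak, colored by the authors' fold enrichment. Of 39 triangles 18 lie on the Kat6b row, and the Kat6a row holds none.

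The bases just upstream of a start are given first. They are those of Kat6b and Kat2a, which had a peak at a TSS, and of Kat5 and Kat8, which had none. Sequences are from GRCm38, the assembly of mm10, 5′ to 3′ on the strand of the gene, with each CG dinucleotide in capitals. CpG islands, stretches dense in CG, mark the starts of most broadly expressed genes. Kat6b is at chr14:21499569-21499769 on the plus strand, Kat2a at chr11:100712466-100712666 on the minus strand, Kat5 at chr19:5610238-5610438 on the minus strand and Kat8 at chr7:127912315-127912515 on the plus strand.
Kat6b start, inside the peak: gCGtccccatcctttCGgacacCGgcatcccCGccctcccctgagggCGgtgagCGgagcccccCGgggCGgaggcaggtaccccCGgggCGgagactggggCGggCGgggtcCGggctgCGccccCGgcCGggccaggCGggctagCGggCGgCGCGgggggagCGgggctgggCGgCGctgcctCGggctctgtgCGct
Kat2a start, just outside the peak: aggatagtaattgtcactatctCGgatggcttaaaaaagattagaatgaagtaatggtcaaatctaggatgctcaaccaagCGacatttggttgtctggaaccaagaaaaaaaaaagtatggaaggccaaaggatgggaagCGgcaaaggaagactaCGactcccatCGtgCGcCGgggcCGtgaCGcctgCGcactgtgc
Kat5 start, no peak: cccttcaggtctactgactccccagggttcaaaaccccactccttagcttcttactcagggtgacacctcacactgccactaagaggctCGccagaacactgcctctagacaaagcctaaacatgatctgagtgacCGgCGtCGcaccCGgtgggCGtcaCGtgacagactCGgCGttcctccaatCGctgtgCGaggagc
Kat8 start, no peak: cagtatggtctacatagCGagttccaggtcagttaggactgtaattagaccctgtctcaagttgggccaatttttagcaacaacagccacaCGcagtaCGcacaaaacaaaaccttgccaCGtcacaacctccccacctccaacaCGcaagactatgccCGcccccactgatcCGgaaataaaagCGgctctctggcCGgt
The Kat6b stretch holds 26 CG dinucleotides at 82.1% GC. The others hold fewer, with 10 at Kat2a (47.3% GC), 11 at Kat5 (57.7% GC) and 9 at Kat8 (51.7% GC). The same stretch, not printed, held 17 at Ep300 (69.7% GC) and 5 at Kat2b (38.3% GC), both with a peak at a TSS. Among these starts the counts did not separate those with a peak from those without one. Kat6a, without a peak, and Crebbp and Hat1, each with a peak at a TSS, are not among them. At the summit of the Kat2a peak, in the gene, there were 13 at 73.1% GC. The Kat2a start lies 17 bp from that peak, and no peak lies closer than 1541 bp to a Kat5 TSS or 7449 bp to a Kat8 TSS. RefSeq promoter entries matched 8 of the 9 genes, and the stretch printed for Kat6b ends at the base before a start of both GENCODE and RefSeq, at position 21499770.

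Peaks away from the starts are shown by the bases within 100 of the summit of 2 peaks in Kat6b introns and 1 in a Hat1 intron, all on the plus strand. They are at chr14:21554141-21554341, chr14:21489186-21489386 and chr2:71412575-71412775. The first and the last were the strongest peaks inside their genes, and the other was among those with the fewest CG dinucleotides.
Kat6b intron, fold enrichment 8.76: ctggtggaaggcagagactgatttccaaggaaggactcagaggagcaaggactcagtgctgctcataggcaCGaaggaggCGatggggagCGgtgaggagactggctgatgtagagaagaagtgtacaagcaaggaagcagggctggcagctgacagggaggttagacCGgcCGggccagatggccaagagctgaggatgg
Kat6b intron, fold enrichment 4.67: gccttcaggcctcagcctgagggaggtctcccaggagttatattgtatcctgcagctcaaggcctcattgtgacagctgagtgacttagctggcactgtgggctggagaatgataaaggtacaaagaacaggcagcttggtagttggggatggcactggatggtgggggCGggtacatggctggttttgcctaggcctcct
Hat1 intron, fold enrichment 8.51: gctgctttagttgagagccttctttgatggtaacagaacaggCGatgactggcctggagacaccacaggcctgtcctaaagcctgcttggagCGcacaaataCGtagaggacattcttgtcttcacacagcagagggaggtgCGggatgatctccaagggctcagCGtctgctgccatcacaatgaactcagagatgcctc
They hold 5, 1 and 5 CG dinucleotides. None of the 3 is masked as a repeat. The summit of the Hat1 peak lies in an exon of the processed pseudogene Gm13642, 242 bp from the TSS of that pseudogene.

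Kat6b encodes MORF, a MYST enzyme that shares BRPF scaffolds with HBO1. The gene lies on the plus strand (chr14:21481434-21672478) and spans 191 kb. It held 12 peaks, and 6 more lay within 50 kb upstream, which makes 18 of the 39 peaks in or near the 9 genes (46.2%). With the −log10 q limit at 10, 7 remained in the gene and 9 in it or within 50 kb, of 14 for the 9 genes. Of the 12 summits in the gene, 11 were in introns and 1 was in an exon.

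Among peaks at a TSS or inside the 9 genes, flanks left out, the one with the highest −log10 q lay at an internal Kat6b start. It ran over 1311 bp at chr14:21499039-21500349 and was enriched 4.15-fold at −log10 q 27.8. The fold enrichment is the authors' ratio of ChIP signal to local background, and q is the false discovery rate given by their peak caller. Its summit was 9 bp upstream of the coding TSS at 21499770, which is 18336 bp inside the longest span of the gene, so that the summit is in an intron of longer transcripts. The sequence within 100 bp of the summit, the window used for all counts at summits, held 29 CG dinucleotides at 83.6% GC. Among the nearest peaks of protein-coding genes that lay within 1 kb of a TSS, each peak counted once, this fold enrichment was at percentile 87.6. Peaks at coding TSSs are all peaks within 1 kb of any TSS of a protein-coding gene. Among 1853 of these with like input, taken as 0.8 to 1.25 times that of this peak, it was at percentile 97.2 (median 2.49). These percentiles describe 1 list and are no test.

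The outermost Kat6b TSS at 21481434 was of another kind. The 1 kb around it was 44.1% GC with 1 input read end (exact Poisson 95% interval 0.0253 to 5.57). Like all such intervals here, this one covers counting error only and takes read ends as independent. Both ends of a read pair were counted, so these intervals are too narrow. A peak 684 bp from this TSS, at chr14:21482118-21482473, was enriched 7.01-fold at −log10 q 13.6, with 4 input read ends per kb at its summit and 2 CG dinucleotides. A further peak, at chr14:21625726-21626250, covered the TSS of a noncoding transcript at 21625752, enriched 5.78-fold at −log10 q 7.26. These make 3 of the 8 peaks at a TSS of the 9 genes, and 1 of the 3 was at a CpG-dense start.

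The other 9 peaks in the Kat6b gene had fold enrichments from 2.66 to 8.76, with a median of 5.27. The strongest, at chr14:21554046-21554395, reached 8.76 with a −log10 q of 13.8 and ranked 168 of all 13823 peaks by fold enrichment. It was followed by 7.52 at chr14:21594679-21595460, where the sequence at the summit was 100% repeat-masked, and by 7.35 at chr14:21613909-21614213. The weakest, at chr14:21485834-21486183, was enriched 2.66-fold at a −log10 q just above the limit of the list. All 9 summits lay in introns.

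Upstream of Kat6b the 6 peaks had fold enrichments from 4.26 to 6.84. The nearest, enriched 5.47-fold, was 1353 bp from the outermost TSS. The one with the highest −log10 q, 20.3, lay at chr14:21477138-21477565 with a fold enrichment of 4.86. The summits of 3 of them lay in the noncoding gene Gm30363, and 1 was 982 bp from the snRNA gene Gm25864, while Kat6b was the nearest protein-coding gene for all 18.

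The Kat6b peaks formed a run from the first summit to the last of 210 kb, with a median spacing of 7364 bp (400 to 54480 bp). Over the gene and 50 kb on both sides there were 6.18 peaks per 100 kb, against 0.507 over the genome. Of 27247 fixed 100-kb windows of the genome, 70.3% held no peak and the 99th percentile was 5. The windows that cover Kat6b held 11, 4 and 3 peaks, and 29 windows (0.106%) held 11 or more. Of 1494 protein-coding genes of 100 to 200 kb, 6 had at least the 12 peaks of Kat6b and the median was 1. Among genes of all lengths 17 did, Jade1 with 14 peaks among them, an HBO1 complex scaffold named here after its value was seen. Kat6b thus was among the genes with the most peaks, but other genes held more.

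**Figure D2:**
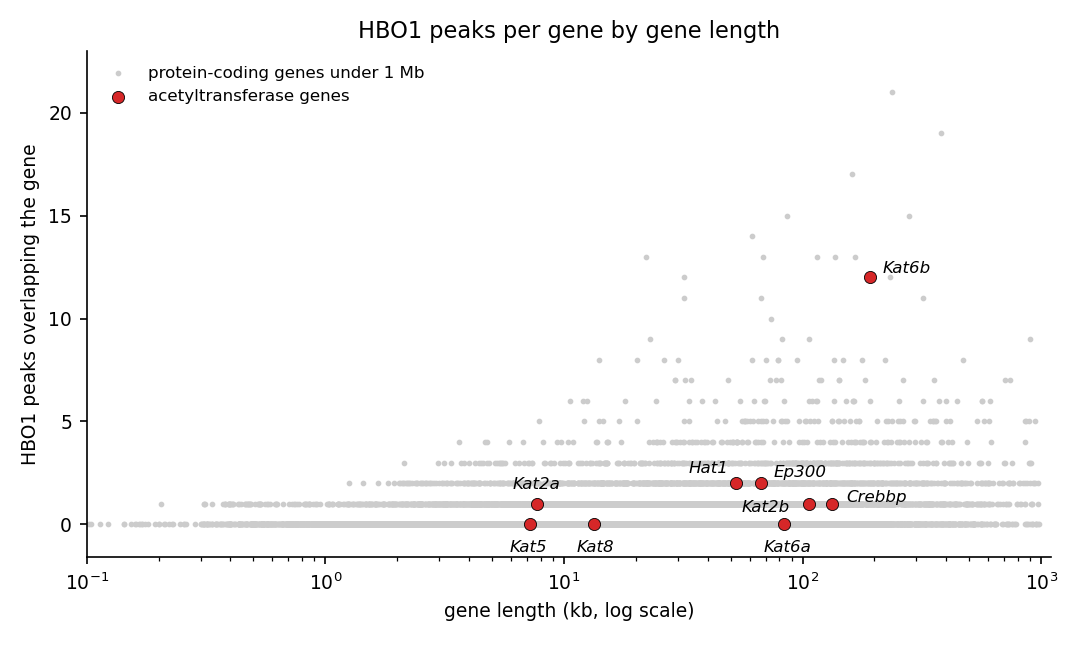
The number of HBO1 peaks that overlap a gene is plotted against gene length (kb, log scale) for protein-coding genes under 1 Mb (gray) and the 9 acetyltransferase genes (red). Kat6b stands at 12 peaks and the other 8 at 0 to 2.

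Kat6a, which encodes MOZ, the paralog of MORF, had no peak in the gene or within 50 kb. It lies on the plus strand (chr8:22859535-22943259) and spans 83.7 kb. The nearest peak was 70947 bp away at chr8:22788299-22788588, enriched 3.77-fold at −log10 q 4.86, with its summit in a UTR of Ap3m2. The start of Kat6a had the most GC of the 9, with 79.1% in the 1 kb around the outermost TSS. Of the 187 protein-coding genes in its class of 75 to 80% GC, 76.5% had a peak at a TSS. Kat6a has 3 TSSs, and of protein-coding genes with 2 to 3 TSSs 14.8% had one. Of protein-coding genes of 50 to 100 kb, 45.2% had a peak in the body, and the median was 0 peaks. The paralogs thus differed in the list, with 18 peaks for Kat6b (191 kb) and 0 for Kat6a (83.7 kb), and this difference has no error estimate.

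At the outermost Kat6a TSS 139 input read ends fell in 1 kb (95% interval 117 to 164), and the median of its GC class was 120. The part of input in the missing peak was not tested. Of 1377 genes with like input, 45.8% had a peak at a TSS, and the 851 peaks at coding TSSs with like input had fold enrichments of 1.61 and above, with a median of 2.31. A gene without a peak is one at which no region passed the authors' threshold, not one shown to lack HBO1, since the ChIP reads themselves were not analysed here.

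Kat5 and Kat8, the other MYST genes without a peak, each had peaks at a neighbor. Kat5 encodes Tip60, the enzyme of the complex of that name, which acts in transcription and DNA repair, and lies on the minus strand (chr19:5603014-5610237). Its nearest peak, at chr19:5601953-5602425, was enriched 2.41-fold at −log10 q 9.13. Its edge was 1541 bp from an internal Kat5 TSS, and its summit was 1806 bp from that TSS and 75 bp from a TSS of Rnaseh2c. Its 12 TSSs had between 25 and 72 input read ends in 1 kb, with 56 at the outermost. Of 4212 genes with like input to that, 24.0% had a peak at a TSS, so that most such genes were without one as Kat5 was.

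Kat8 encodes MOF, which acetylates histone H4 in the MSL and NSL complexes, and lies on the plus strand (chr7:127912516-127925837). Upstream and within 50 kb, 4 peaks lay in Zfp668 and Bckdk, 2 in each, with fold enrichments from 2.24 to 3.88. The nearest, at chr7:127904771-127905067, was 7449 bp from the Kat8 TSS, and its summit was 39 bp from a TSS of Bckdk. The outermost Kat8 TSS had 66 input read ends in 1 kb, and 28.8% of 4995 genes with like input had a peak at a TSS.

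Kat2a and Kat2b, the GCN5 and PCAF enzymes, each had a single peak, at the start, and none elsewhere within 50 kb. The Kat2a peak at chr11:100712158-100712448 was enriched 2.19-fold at −log10 q 4.83, the lowest q support of the 8 peaks at a TSS. The TSS inside it was that of a noncoding transcript at 100712173, and the coding TSS at 100712465 was 17 bp outside it. The Kat2b peak at chr17:53566956-53567753 covered the coding TSS at 53566971, enriched 2.19-fold at −log10 q 7.33. Both summits lay in a coding exon, 159 and 430 bp downstream of the coding TSS.

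The fold enrichments of Kat2a and Kat2b were at percentiles 23.4 and 23.3 among the nearest peaks of protein-coding genes within 1 kb of a TSS, each peak counted once. Among peaks at coding TSSs of like input they were at 23.3 and 37.3. Kat2b spans 106 kb, and of genes of 100 to 200 kb 51.7% had a peak in the body, as it did. Its peak lay at the start, and the rest of the gene held none, in contrast to Kat6b.

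Ep300 and Crebbp had similar peaks at their starts. At Ep300, on the plus strand (chr15:81585351-81652077), the peak at chr15:81585562-81586617 was enriched 2.52-fold at −log10 q 11.3. At Crebbp, on the minus strand (chr16:4081328-4213997), the peak at chr16:4212953-4213833 was enriched 2.50-fold at −log10 q 9.62. The TSS inside the Ep300 peak was that of a retained intron at 81586220, and its coding TSS at 81585397 was 165 bp outside, while the Crebbp peak covered the coding TSS at 4213413. Both summits lay in a UTR, at percentiles 67.1 and 61.2 of fold enrichment among peaks at coding TSSs of like input. The Crebbp summit was the most CpG-dense of the 39, with 35 CG dinucleotides at 86.6% GC, and the Ep300 summit had 24 at 76.1%.

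The starts of both genes were rich in GC and in input. The outermost TSS had 66.9% GC and 122 input read ends in 1 kb at Ep300, and 75.4% GC and 149 read ends at Crebbp. Genes of the same GC classes had a peak at a TSS in 46.3% and 76.5% of cases. Ep300 also held an exonic peak at chr15:81601066-81601477, enriched 5.29-fold at −log10 q 5.43, and a peak at L3mbtl2 lay downstream. The peaks near Crebbp were at Trap1, with a fold enrichment of 2.25, and at the pseudogene Gm5766, with 4.12.

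Hat1, on the plus strand (chr2:71388958-71441622), had the highest fold enrichment at a CpG-dense start after Kat6b. The peak at chr2:71389386-71389760 was enriched 2.83-fold at −log10 q 12.4, with 21 CG dinucleotides at its summit. It began 126 bp downstream of the coding TSS at 71389260 and covered no TSS. The 1 kb around that TSS had 59.7% GC and that around the outermost TSS 49.7%. By GC class, 22.5% of the genes with 55 to 60% GC at the outermost TSS had a peak at a TSS, and 10.1% of those with 45 to 50%.

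A peak in a Hat1 intron, at chr2:71412434-71412985, reached a fold enrichment of 8.51 with a −log10 q of 13.8 and ranked 198 of all peaks. It overlapped an exon of the processed pseudogene Gm13642, and held 3 input read ends per kb at its summit. Upstream, 4 peaks had their edges 38079 to 41683 bp from the nearest Hat1 TSS, in introns of Slc25a12, a mitochondrial carrier gene. One of them, at chr2:71348001-71348514, was enriched 23.1-fold at −log10 q 67.9, ranked 2 of all peaks, and had its summit 451 bp from a Slc25a12 TSS. The strongest enrichment near any of the 9 genes was thus at a neighbor, and over the 39 peaks 13 had another protein-coding gene nearest.

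**Figure D3:**
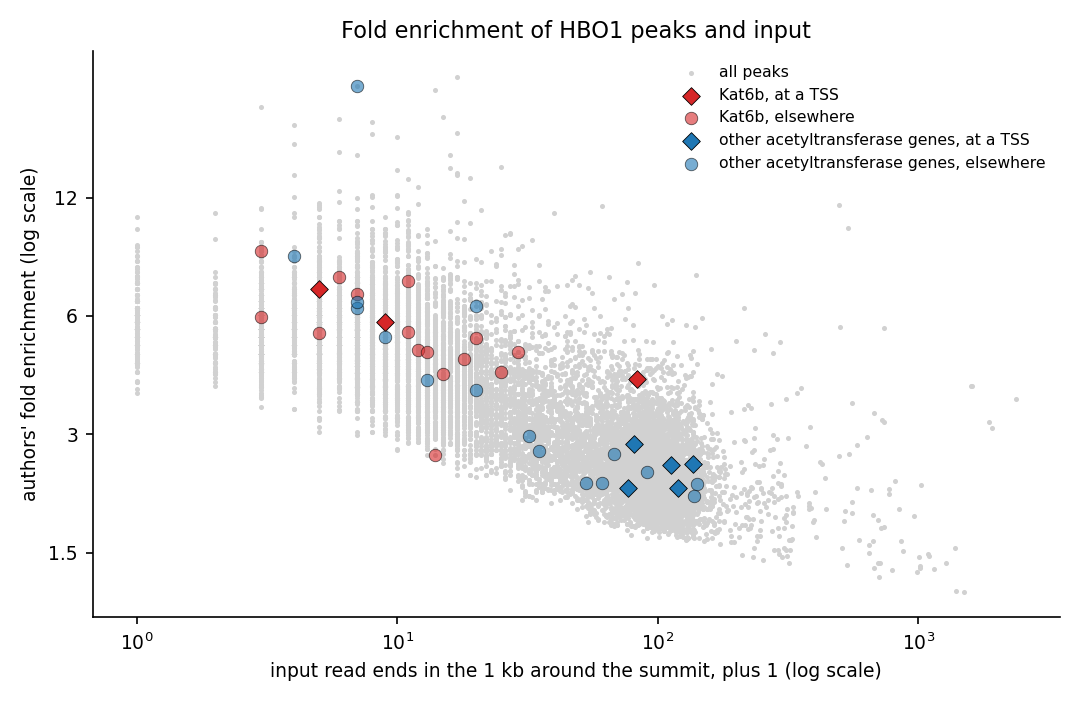
The authors' fold enrichment (log scale) is plotted against input read ends per kb at the summit, plus 1 (log scale), for all 13823 peaks (gray), Kat6b peaks (red) and peaks of the other 8 genes (blue), with diamonds at a TSS. The Kat6b start peak, with 82 read ends and a fold enrichment of 4.15, lies above the other genes' diamonds, which run from 2.19 to 2.83.

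Fold enrichment was lower where input was higher over the list, and both differed between Kat6b and the other genes. The 18 Kat6b peaks had a median fold enrichment of 5.35 and a median of 10.5 input read ends, and the 21 peaks of the other genes had 2.72 and 52.0. These sets also differed in place, since 16 of the 39 peaks lay over 1 kb from any TSS of any gene, and 13 of the 16 were Kat6b peaks. Over the whole list, peaks within 1 kb of a coding TSS had medians of 2.63 and 83.0, and peaks over 1 kb from any TSS had 4.68 and 10.0. Set beside peaks of like input over 1 kb from any TSS, the 13 such peaks of Kat6b were at a median percentile of 76.3 (0.415 to 98.5), with 11 of the 13 above the 50th. The parts of input and of distance from a TSS in the difference between Kat6b and the other genes were otherwise not tested.

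GC content moved with the presence of a peak over all protein-coding genes, from 6.46% of those with 40 to 45% GC at the outermost TSS to 76.5% of those with 75 to 80%. The 9 genes did not follow this order among themselves. The gene with the most GC, Kat6a, had no peak, while the 2 with the least, Kat6b with 44.1% and Hat1 with 49.7%, had one. At both this rests on the outermost TSS, since the coding TSS nearest to the peak had 72.3% GC at Kat6b, for its main peak, and 59.7% at Hat1. Kat2a, Kat2b and Kat5 had nearly the same GC content, at 57.6%, 57.1% and 57.2%, and of these Kat5 alone had no peak.

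**Figure D4:**
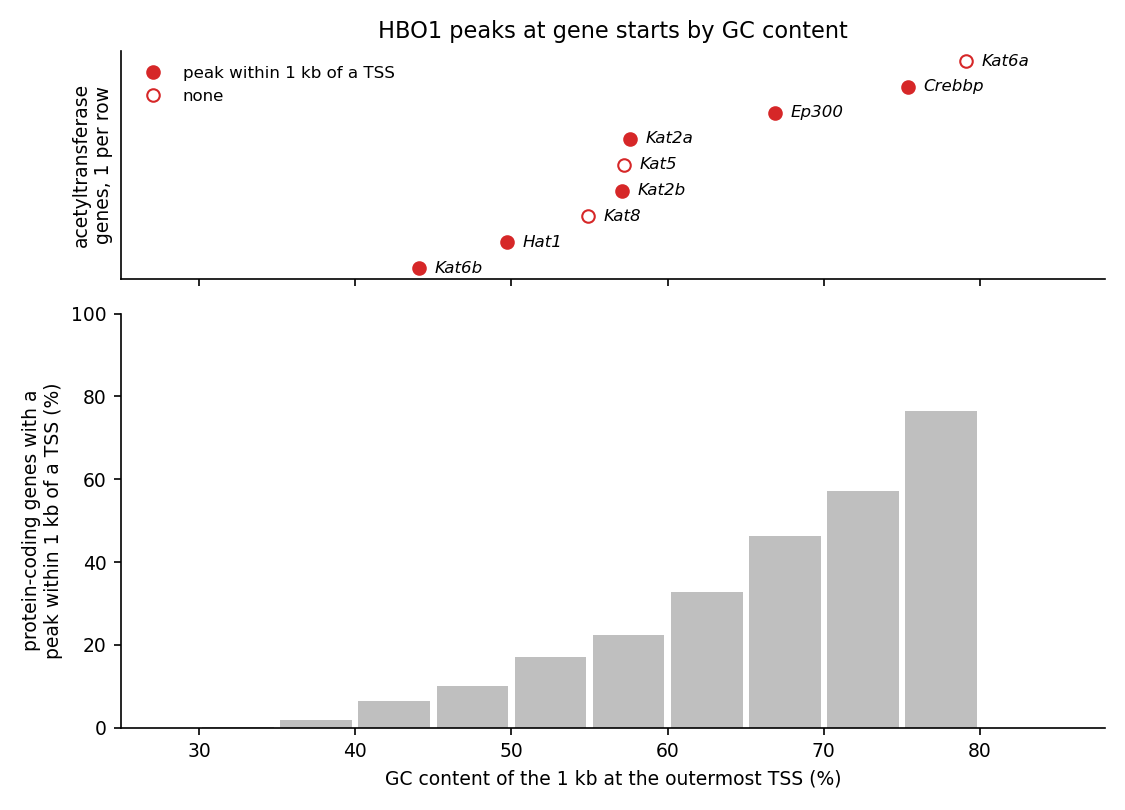
The lower panel gives the share of protein-coding genes with an HBO1 peak within 1 kb of a TSS (%) by GC content of the 1 kb at the outermost TSS (%), in classes of at least 50 genes. The upper panel places the 9 acetyltransferase genes on the same axis, filled where a peak was listed, with Kat6a at 79.1% open and Kat6b at 44.1% filled.

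Input around the starts varied widely within some genes as well as between genes. At the outermost TSS it ran from 1 read end in 1 kb at Kat6b to 149 at Crebbp, with a median of 60.0 over the 9 genes. The 12 Kat6b TSSs ran from 1 to 120 read ends, the 8 Crebbp TSSs from 0 to 149 and the 3 Kat2a TSSs from 58 to 79. Corrected for GC content, input over the genes and 1 Mb on each side was between 0.994 and 1.20 times that of the genome, and the central 95% of 2-Mb windows ran from 0.684 to 1.22. The value was 0.994 at Kat6b and 1.00 at Kat6a, so that the paralogs did not differ in this measure of copy number by more than the 0.220 SD of such windows.

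**Figure D5:**
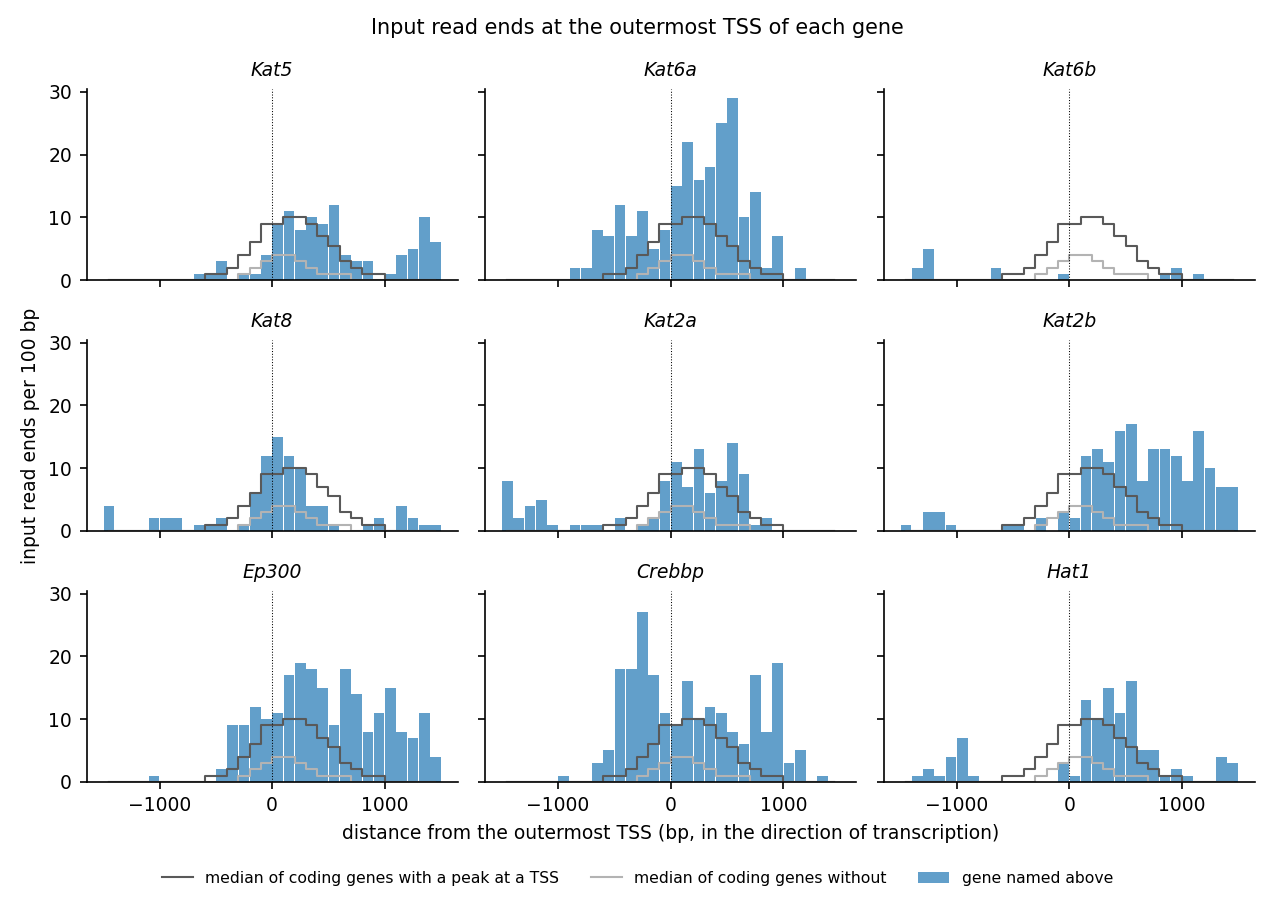
Input read ends per 100 bp are plotted by distance from the outermost TSS (bp, in the direction of transcription) for each gene (blue bars), with the median of protein-coding genes with a peak at a TSS (dark line) and without one (light line). Kat6a, Ep300 and Crebbp hold more input than either median over much of the window, and Kat2b does so over most of the part downstream of the TSS. Kat6b, whose CpG-dense start lies 18336 bp further in, holds almost none.

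Letter motifs were searched on both strands in the same window at each summit. Kat6b, Kat2b, Ep300 and Hat1 each had 1 peak at a TSS with the GC box GGGCGG, the letters bound by Sp1, so that 4 of the 8 peaks at a TSS held it, as did 51.7% of peaks at coding TSSs, 40.0% of coding TSS windows of the same length and 16.8% of peaks over 1 kb from any TSS. The main Kat6b peak held it 5 times. The octamer ATGCAAAT and the MORE, the sites of monomeric and dimeric Oct4, the latter with up to 1 mismatch, were in none of the 8 and in none of the 16 peaks over 1 kb from any TSS. They were rare in general, with the octamer in 0.0600% of peaks at coding TSSs and in 0.256% of the distant ones, and the MORE in none and in 0.0488%. Of coding TSS windows, 0.880% held the octamer and 0.0273% the MORE. The CCAAT box was in none of the 8 and in 3 of the 16, against 7.91% and 24.7% of such peaks and 28.2% of coding TSS windows. The ETS core CCGGAA, the E box CACGTG, the NRF1 motif and the YY1 core AAGATGG were in none of the 24. Of all peaks at coding TSSs 10.7%, 3.58%, 0.0200% and 3.18% held them, and of all peaks over 1 kb from any TSS 10.7%, 3.57%, 0.0610% and 12.8%. Of coding TSS windows 15.0%, 5.68%, 1.06% and 4.91% held them. A match is a description of letters and not a bound site.

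CG dinucleotides were counted in the same window. The 8 peaks at a TSS had a median of 22.5 per window (2 to 35), against 22.0 over 5004 peaks at coding TSSs. The 16 peaks over 1 kb from any TSS had 4.5 (0 to 12), against 5.0 over 8198.

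The genes that work with these enzymes, and those of the deacetylase families, were counted in the same way, from 6 lists of 77 genes. A peak at a TSS was listed for 40 of the 77, and for 16 at a −log10 q of 10 or more, beside 21.7% and 7.97% of all protein-coding genes, and GC content at the starts had list medians from 56.0 to 66.8%. Of the 10 genes of the HBO1 complex 6 had one (60.0%), with fold enrichments from 2.21 at the scaffold gene Brpf1 to 4.97 at the scaffold gene Jade3, and Jade2, Ing4, Ing5 and Meaf6 had none. Kat7 itself, named here after its value was seen, was enriched 4.28-fold at −log10 q 22.4.

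Of the 15 partners of Kat5 in the Tip60 complex 7 had a peak at a TSS (46.7%), from 2.15 at Morf4l1 to 3.32 at Brd8. Of the 11 partners of Kat8 in the MSL and NSL complexes 8 had one (72.7%), from 2.00 at Msl1 to 5.88 at Ogt, the gene of O-GlcNAc transferase, and Msl3, Mcrs1 and Phf20 had none. Many partner genes of Kat5 and Kat8 thus had a peak where the genes of the enzymes had none. Of the 18 SAGA and ATAC partners of Kat2a and Kat2b 8 had a peak (44.4%), from 1.91 at Kat14 to 2.69 at Mbip, both of the ATAC complex, and none of the 8 reached a −log10 q of 10. Of the 5 partners of Hat1, histone chaperones and binding proteins, 4 had one (80.0%), from 1.88 at Rbbp4 to 3.33 at Rbbp7, and the chaperone gene Asf1b had none. Of the 18 genes of the deacetylase families, listed by their Hdac and Sirt names, 7 had one (38.9%), from 1.73 at Hdac5 to 3.59 at Sirt7. Jade3, Ogt and Rbbp7, each the highest of its list, lie on chromosome X. They had 24, 0 and 72 input read ends in 1 kb at the outermost TSS, and the part of input in their values was not tested. Of the other list genes on chromosome X, named here after their values were seen, Hcfc1 had a peak at a TSS (3.21). Msl3, Hdac6 and Hdac8 had none. These lists are of 5 to 18 genes in 1 peak list, and no order between them is drawn.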

How the data were processed

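HBO1 ChIP-seq was performed in 2 ChIP samples and 1 input of Oct1 deficient mouse ESCs. The authors used Novoalign 4.03.01 to place paired reads on mm10, and MACS2 with a q limit of 0.005 and a max-gap of 100 to call peaks. How the ChIP samples were combined was not given in the sources used here. The deposited peak list gives a fold enrichment, the authors' ratio over local background, a −log10 q from their peak caller, a score derived from it and a summit. The deposited input gives 1 line per read end with a mapping quality score from the authors' aligner, without normalization.

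Distances from peak edges to GENCODE vM21 TSSs, GRCm38 sequence content and input read ends, counted at midpoints in 1-kb windows, were computed with pysam 0.24.0, pandas 2.3.3, scipy 1.17.1 and numpy 2.4.6 in Python 3.11.15. Figures were drawn with matplotlib 3.10.9. GC classes of genes were 5% wide. For GC-corrected input, read ends with a mapping quality of 20 or more were set against windows of the same 2% GC class, using windows between 30 and 65% GC that held 200 read ends or fewer. Of 2956 read ends in the TSS windows of the 9 genes, 2954 had this mapping quality. Counting and the search for exact motif matches were tested on simulated data. The search with 1 mismatch, used for the MORE, was not.

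All 9 genes are named. Of the partner lists, the genes of highest and lowest fold enrichment and genes without a peak, where at most 5, are named, as are the list genes on chromosome X. The members and lists were chosen with earlier results of these data known. Alternatives were limits on q, distances, TSS sets, flanks and windows. There is 1 peak list, so no comparison was tested. The peaks downstream of Kat8 are counted but not reported here.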

Additional observations from a re-analysis of the deposited data

How the results depend on the processing

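No paired analysis was possible because the peak list pools both ChIP samples, and no replicate could be left out. Of 33 alternatives over 10 results 23 stayed within their limits and 10 moved. Most that moved were at a −log10 q of at least 10, which leaves fewer peaks by construction. There the acetyltransferase genes with a peak at a TSS fell from 6 to 3 (Kat6b, Ep300 and Hat1), with a TSS inside a peak from 5 to 2, with a peak in the gene from 6 to 3 and with a peak within 50 kb from 8 to 3, where 7.97%, 4.80%, 9.43% and 25.6% of all protein-coding genes were called. The 39 peaks fell to 14, the 4764 protein-coding genes with a peak at a TSS to 1748 and the 40 list genes to 16, of which the SAGA and ATAC partners held 0. Genes with a TSS inside a peak numbered 3 with protein-coding transcripts (Kat6b, Kat2b and Crebbp) and 0 with 1 outermost TSS per gene, against 8.54% and 3.53% of all. The median input of 60.0 read ends was 90.0 in windows of 2 kb, which are wider by construction. A −log10 q limit of 5 removed the peak at Kat2a, and Kat5 gained one at 2 kb from a TSS. The 12 peaks in Kat6b became 11 with the −log10 q limit at 5 and 7 with it at 10. Intervals cover counting error only and are too narrow, since both ends of a read pair were counted as if independent. The list holds no depth for the ChIP samples.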
